A study of Mus musculus with 3 samples.

Results

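The genes of the nuclear lamina and of the SUN side of the LINC complex (linker of nucleoskeleton and cytoskeleton) were followed in RNA-seq of mouse embryo fibroblasts (MEFs). The set holds 9 of the 21782 genes in the deposited count table. They were taken by their gene symbols and not by a rule on their values, but earlier results of these data were known. It comprises the lamins Lmna, Lmnb1 and Lmnb2, the lamina-bound proteins Lbr, Emd, Tmpo and Banf1, and the SUN proteins Sun1 and Sun2. Levels are given as CPM, in which the count of a gene is set relative to the size of its library after scaling with the TMM method of edgeR.

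The lamina is a meshwork of lamin filaments under the inner nuclear membrane that gives the nucleus its stiffness and holds peripheral heterochromatin. A-type and B-type lamins form separate but interacting networks, and membrane proteins such as the lamin B receptor and the LEM-domain proteins tie chromatin to them. SUN proteins cross the inner membrane, bind lamins on the nuclear side and pair with KASH proteins of the outer membrane, which reach the cytoskeleton. In fibroblasts this chain is known for moving and anchoring the nucleus.

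RNA-seq of polyA-selected RNA was deposited for wild-type (WT) MEFs as 3 libraries, with 1 from each of 3 clones. The cells were isolated from embryos at E12.5, grown in DMEM with 20% fetal bovine serum and harvested while growing asynchronously. All 3 libraries belong to the same genotype and treatment, so no groups were compared, and the comparisons below are between clones and between genes. With 1 library per clone, a clone, its culture and its library cannot be told apart, whether the clones came from separate embryos is not given in the sources used here, and p-values measure only how the libraries differ beyond counting noise.

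The libraries held 22594316 to 25261357 counts, so that 1 to 3 counts correspond to at most 0.133 CPM and every gene of the set lay far above this limit. All 9 genes reached 1 CPM in every clone, beside 52.2% of the genes listed. All 8 fibroblast markers (Col1a1, Col1a2, Pdgfra, Pdgfrb, Thy1, Vim, Fn1 and Dcn) were at 1 CPM or more in every clone, with summed levels of 90336, 65923 and 68821 CPM in clones 1, 2 and 3. The largest parts of these sums were Col1a1, Fn1 and Col1a2. The markers did not share an order of clones, since 5 were highest in clone 1 and 3 (Pdgfra, Thy1 and Vim) in clone 2. Clone 2 stood apart by its macrophage genes, since all 9 of that list were highest there, with summed levels of 346, 1657 and 285 CPM in clones 1, 2 and 3. Clone 1 stood apart by cell cycle genes, with the 10 proliferation genes at a summed 542 CPM beside 1091 and 908 CPM in clones 2 and 3. Endothelial and epithelial markers were low, with 1 of 4 in each list at 1 CPM or more in every clone (Kdr and Krt18). Krt8 reached 1.11 CPM (28 counts) in clone 3 only, and the defining Cdh5 and Epcam had at most 6 and 5 counts. In bulk RNA, fewer cells of a type and less RNA per cell cannot be told apart.

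Lmna, which encodes the A-type lamins A and C, was the most abundant of the lamina genes by a wide margin. It had 17801, 19650 and 20202 counts in the libraries of clones 1, 2 and 3, or 716, 871 and 799.8 CPM (796 ± 77.6 CPM; SD, n = 3 clones). Clone 1 was lowest and clone 2 highest, 1.22-fold apart on the CPM scale. Of the genes that reached 1 CPM in all clones, 98.7% had a lower mean CPM. Lmna lies on the minus strand of chromosome 3 (GRCm38, chr3:88480147-88509956), with 12 exons in its longest coding transcript.

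Lmnb1 is a B-type lamin gene whose protein stays farnesylated at the inner membrane. It had 829, 1482 and 1453 counts in clones 1, 2 and 3, or 33.4, 65.7 and 57.5 CPM (52.2 ± 16.8 CPM; SD, n = 3). Clone 1 was well below the other clones, with 1.97 times more CPM in clone 2 (95% exact interval 1.81 to 2.15). Lmnb2, the second B-type lamin gene, had 465, 674 and 673 counts, or 18.7, 29.9 and 26.6 CPM (25.1 ± 5.75 CPM; SD, n = 3). Its order of clones was the same, with 1.60 times more CPM in clone 2 than in clone 1 (95% exact interval 1.42 to 1.80). These intervals, like all others given here, cover counting error only. Lmnb2 lies on the minus strand of chromosome 10 (chr10:80901203-80918245).

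The count of Lmna sums transcripts with different ends, which the deposited table cannot separate. GENCODE M21 annotates a lamin A transcript that codes for 665 residues and a lamin C transcript that codes for 574 residues. Their last 27 coding bases, with the last 4 codons before the stop in capitals, are shown because they differ in the cysteine codon (TGC) that starts the CaaX box, the signal for farnesylation and, in prelamin A, for later cleavage by ZMPSTE24. The lamin A end lies in exon 12 at chr3:88482074-88482100 and the lamin C end in exon 10 at chr3:88483297-88483323, both on the minus strand of GRCm38. The end of Lmnb2, at chr10:80902859-80902885 on the minus strand in exon 12 of 12, is printed for comparison.
Lmna, lamin A: agctcccagaacTGCAGCATCATGtaa
Lmna, lamin C: caccgtgtgagtGGCAGCCGCCGCtga
Lmnb2: acctcaaggggcTGCCGACTGATGtga
The capitals begin with TGC in the lamin A and Lmnb2 transcripts and with GGC in the lamin C transcript.

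To compare lamin genes with each other, counts were divided by the length of all annotated exons of the gene merged. On this scale of counts per kb, Lmna took 88.7%, 83.7% and 84.2% of the summed lamin signal in clones 1, 2 and 3 (85.5% ± 2.76; SD, n = 3). Lmnb1 took 8.14%, 12.4% and 11.9% (10.8% ± 2.35), and Lmnb2 took 3.16%, 3.91% and 3.82% (3.63% ± 0.412). The B-type share was thus lowest in clone 1 and close in the other clones. Without division by length, the Lmna share of raw lamin counts was, in the same order of clones, 93.2% (95% Wilson interval 92.9 to 93.6), 90.1% (89.7 to 90.5) and 90.5% (90.1 to 90.9). The interval of clone 1 did not overlap those of clones 2 and 3, which overlapped each other.

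Within the B-type pair, Lmnb1 was ahead of Lmnb2 in every clone. Per kb of merged exons its share was 72.1%, 76.1% and 75.8% for clones 1, 2 and 3 (74.6% ± 2.23; SD, n = 3). In raw counts the shares were 64.1% (95% Wilson interval 61.4 to 66.6), 68.7% (66.7 to 70.7) and 68.3% (66.3 to 70.3). The ratio of Lmna to Lmnb1 per kb of merged exons was 10.9, 6.73 and 7.05 in the respective clones, a 1.62-fold range between clones.

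**Figure D1:**
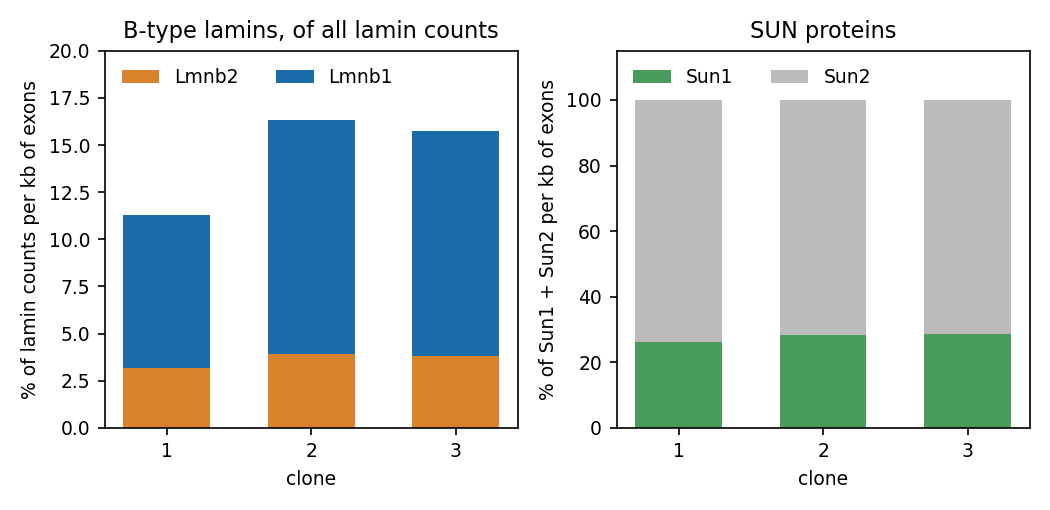
The left panel plots the Lmnb1 and Lmnb2 percentages of all lamin counts per kb of merged exons, stacked, in each clone; the rest up to 100% is Lmna. The right panel plots the Sun1 and Sun2 percentages of their summed counts per kb. The B-type stack is lowest in clone 1, where Lmnb1 takes 8.14%, while the Sun1 share stays between 26.2% and 28.6%.

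Among the lamina-bound proteins, Tmpo and Lbr followed the clones as Lmnb1 did, and Emd did not. Tmpo encodes the LAP2 proteins, LEM-domain proteins that bind lamins and BAF. Its counts were 1210, 2318 and 2200 for clones 1, 2 and 3, or 48.7, 103 and 87.1 CPM (79.5 ± 27.8 CPM; SD, n = 3). Its level in clone 2 was 2.11 times that in clone 1 (95% exact interval 1.97 to 2.26), and the coefficient of variation of 35.0% was the highest of the 9 genes. Tmpo lies on the minus strand at chr10:91147571-91181315. Lbr encodes the lamin B receptor, which tethers heterochromatin to the inner membrane and is also a sterol reductase. It had 1084, 1734 and 1803 counts, or 43.6, 76.9 and 71.4 CPM (64.0 ± 17.8 CPM; SD, n = 3), again with clone 1 below clones 2 and 3. Lbr lies on the minus strand at chr1:181815335-181843046.

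Emd encodes emerin, a LEM-domain protein of the inner membrane that binds lamin A. Its counts were 1819, 1557 and 1841 in clones 1, 2 and 3, or 73.2, 69.1 and 72.9 CPM (71.7 ± 2.32 CPM; SD, n = 3). The clones lay within 1.06-fold of each other. Emd lies on the plus strand of the X chromosome (chrX:74254687-74261548). Banf1 encodes BAF, the small DNA-binding protein that LEM domains recognise. It had 2063, 2278 and 2332 counts, or 83.0, 101 and 92.3 CPM, with a mean of 92.1 CPM and a coefficient of variation of 9.77% over the 3 clones. Clone 1 was lowest and clone 2 highest, 1.22-fold apart, the same fold as for Lmna. Banf1 lies on the minus strand at chr19:5364638-5367168.

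The SUN genes varied little between clones. Sun1, whose protein also takes part in telomere tethering in meiosis, had 2937, 2902 and 3177 counts, or 118, 129 and 126 CPM (124 ± 5.41 CPM; SD, n = 3). Sun2, the other widely expressed SUN gene, had 5917, 5252 and 5671 counts, or 238, 233 and 225 CPM (232 ± 6.87 CPM; SD, n = 3). Sun2 alone of the 9 genes was lowest in clone 3, and its coefficient of variation of 2.97% was the lowest. Sun1 lies on the plus strand at chr5:139200637-139249840 and Sun2 on the minus strand at chr15:79724070-79742536. Sun2 exceeded Sun1 in every clone. Per kb of merged exons the Sun1 share of their sum was 26.2%, 28.3% and 28.6% in clones 1, 2 and 3 (27.7% ± 1.31; SD, n = 3), and the Sun2 to Sun1 ratio was 2.62 ± 0.177. In raw counts the Sun1 share was 33.2% (95% Wilson interval 32.2 to 34.2), 35.6% (34.6 to 36.6) and 35.9% (34.9 to 36.9), so clone 1 was below the other clones here too.

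**Figure D2:**
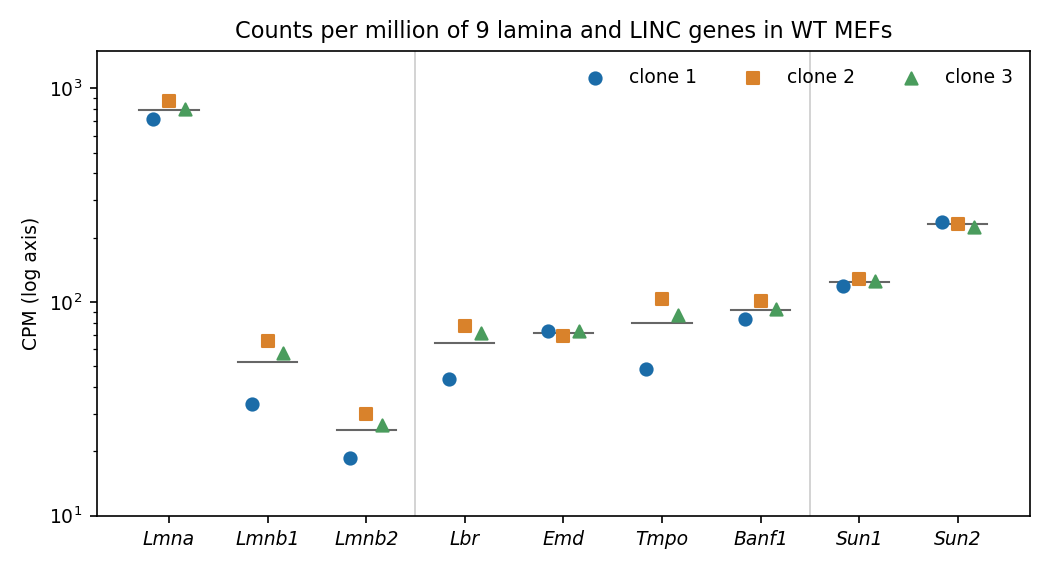
CPM of the 9 genes on a log axis, with a symbol for each clone and a horizontal bar at the mean of the 3 clones; vertical lines separate lamins, lamina-bound proteins and SUN proteins. Clone 1 lies lowest for 7 genes, with Tmpo at 48.7 CPM in clone 1 beside 103 CPM in clone 2, and the clones nearly coincide for Emd and Sun2.

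Per kb of merged exons, the order of the mean levels was Lmna (136 ± 13.3 CPM per kb), Banf1 (61.6 ± 6.01), Sun2 (42.8 ± 1.27), Emd (28.5 ± 0.920), Lmnb1 (17.6 ± 5.68), Sun1 (16.4 ± 0.713), Lbr (13.4 ± 3.75), Tmpo (7.23 ± 2.53) and Lmnb2 (5.85 ± 1.34; SD, n = 3 in each case). The first 4 steps, from Lmna down to Lmnb1, separated genes whose ranges over the clones did not overlap. The last 4 steps joined genes whose ranges overlapped. Within the clones, however, Sun1 was above Lbr, Lbr above Tmpo and Tmpo above Lmnb2 in all 3. Lmnb1 was above Sun1 in 2 of 3 clones and below it in clone 1, where Lmnb1 stood at 11.3 and Sun1 at 15.6 CPM per kb. Among the expressed genes, 97.5% had a lower mean per kb than Lmna, 94.3% than Banf1 and 91.7% than Sun2, whereas Lmnb2 at 52.0% and Tmpo at 58.3% stood near the middle.

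The definition of length moved Tmpo and Banf1 most. The merged exons of Tmpo cover 10998 bp, whereas its transcript with the longest coding sequence has 3772 nt, and per kb of that transcript Tmpo rose to 21.1 CPM per kb, above Lmnb1 at 18.4 and Lbr at 18.2. Per kb of that transcript Lmna stood at 252, Banf1 at 73.1, Sun2 at 61.0, Emd at 45.0, Sun1 at 30.1 and Lmnb2 at 7.10 CPM per kb. Per kb of coding length, Banf1, which codes for only 89 residues, came to 341 beside 398 CPM per kb for Lmna. The ranges of the pair overlapped, but Lmna was higher in all 3 clones, with a ratio of 1.17 ± 0.00278 (SD, n = 3). Lmna, Banf1, Sun2 and Emd were the first 4 genes, and Lmnb2 the last, under each of these lengths.

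**Figure D3:**
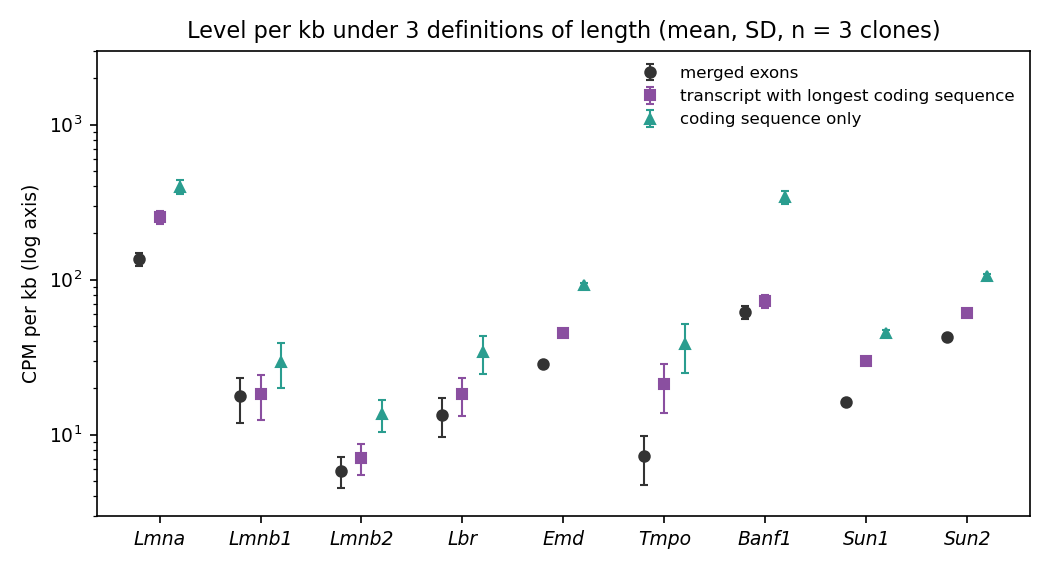
Mean CPM per kb of the 9 genes on a log axis, with bars of 1 SD over the 3 clones, for 3 definitions of length. Lmna is highest and Lmnb2 lowest under each definition, and Tmpo and Banf1 move most between definitions.

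To ask which genes differed between the clones beyond counting noise, a Pearson chi-square test that set the 3 counts of a gene against the scaled sizes of the libraries was run on every gene with at least 10 counts in each clone, with Benjamini-Hochberg adjustment over all 12218 of them. By this test, 8 of the 9 lamina and SUN genes differed, beside 62.5% of all genes tested. Of these, 1 gene (Tmpo) had a range of at least 2-fold, beside 7.93% of all genes, or 8.38% whether called or not. The adjusted p was 1.18e-101 for Tmpo, 2.63e-77 for Lmna, 1.53e-56 for Lmnb1, 4.54e-52 for Lbr, 8.99e-14 for Lmnb2, 3.73e-09 for Banf1, 0.00673 for Sun1 and 0.0113 for Sun2. Emd did not pass, at an adjusted p of 0.229. Deep genes such as Lmna pass this test at small folds, and the median fold between the highest and lowest clone was 1.22 for the 9 genes and 1.24 for all genes tested.

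The direction was shared by most of the set. Of the 9 genes, all of them tested, 7 were called, lowest in clone 1 and highest in clone 2 (all but Emd and Sun2), as were 17.1% of all genes tested, with 27.1% called and lowest in clone 1 and 23.5% called and highest in clone 2. The same 7 genes were lower in clone 1 than in clone 2 and also than in clone 3 in tests of each pair of clones, beside 17.6% of all genes, and none was higher in clone 1 than in both, beside 15.5%. Sun1 held this by little, since with DESeq2 size factors its adjusted p between clones 1 and 3 was 0.0517. The call of Sun2 was lost when library sizes were not scaled (adjusted p = 0.495), without clone 1 (0.134) and without clone 3 (0.330).

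The pairs of clones differed in how many genes passed. Between clones 1 and 2, 7 of the 9 genes differed (all but Emd and Sun2), beside 53.0% of all genes, and between clones 1 and 3, 8 did (all but Emd), beside 45.4%. Between clones 2 and 3 alone, 4 of the 9 genes differed, beside 31.7% of all genes in that comparison. They were Lmna (adjusted p = 2.32e-16), Tmpo (2.58e-07), Lmnb1 (0.00164) and Banf1 (0.00955), each higher in clone 2. Lbr (0.0768), Lmnb2 (0.0938) and Sun1 (0.546) did not pass, with levels in clone 3 of 0.928 (95% exact interval 0.869 to 0.992), 0.891 (upper bound 0.993) and 0.977 (0.929 to 1.03) times those in clone 2.

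The differences were also set against the spread between clones over all genes. The biological coefficient of variation, edgeR's common estimate of the relative spread beyond counting noise, was 0.187. With 1 clone left out, it was 0.172, 0.142 and 0.228 without clones 1, 2 and 3. The value of 0.187, used here, was estimated from these same 3 libraries, so the differences between clones are part of it. A gene can therefore pass only with a spread well beyond the common one, and few genes can. With this spread in the variance of the chi-square test, none of the 9 genes passed, beside 2.57% of all genes, and 1 (Tmpo) had an unadjusted p under 0.05 (p = 0.0297, adjusted p = 0.506). The folds of Tmpo (2.11), Lmnb1 (1.97), Lbr (1.76) and Lmnb2 (1.60) exceeded those of 93.0%, 91.2%, 87.3% and 82.2% of the genes tested. Those of Lmna, Banf1, Sun1, Sun2 and Emd exceeded 45.2%, 45.3%, 13.9%, 7.13% and 7.09%.

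The clones also differed in cell cycle genes, in the same order of clones as Tmpo and Lmnb1. The 10 proliferation genes were Mki67, Top2a, Ccnb1, Cdk1, Aurkb, Plk1, Mcm2, Mcm3, Mcm5 and Mcm6. All 10 were called, each lowest in clone 1 and highest in clone 2, beside 17.1% of all genes tested. On the log2(CPM + 1) scale, the median of their deviations from the gene's own mean was -0.62, 0.44 and 0.16 for clones 1, 2 and 3, beside -0.63, 0.43 and 0.20 for Tmpo and -0.58, 0.38 and 0.19 for Lmnb1. All 3 arrest genes (Cdkn1a, Cdkn2a and Cdkn2b) were called, highest in clone 1 and lowest in clone 2, with summed levels of 587, 411 and 464 CPM. Of all genes tested, 23.8% were called and highest in clone 1, and 21.3% called and lowest in clone 2. Mki67, a defining marker of cycling cells, had 3270, 5113 and 5042 counts. Between clones 1 and 3, the levels were 1.72-fold apart for Lmnb1, 1.79-fold for Tmpo and 1.64-fold for Lbr. The part of cell cycle state and of the macrophage transcripts of clone 2 in the lamina gene differences was not tested.

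**Figure D4:**
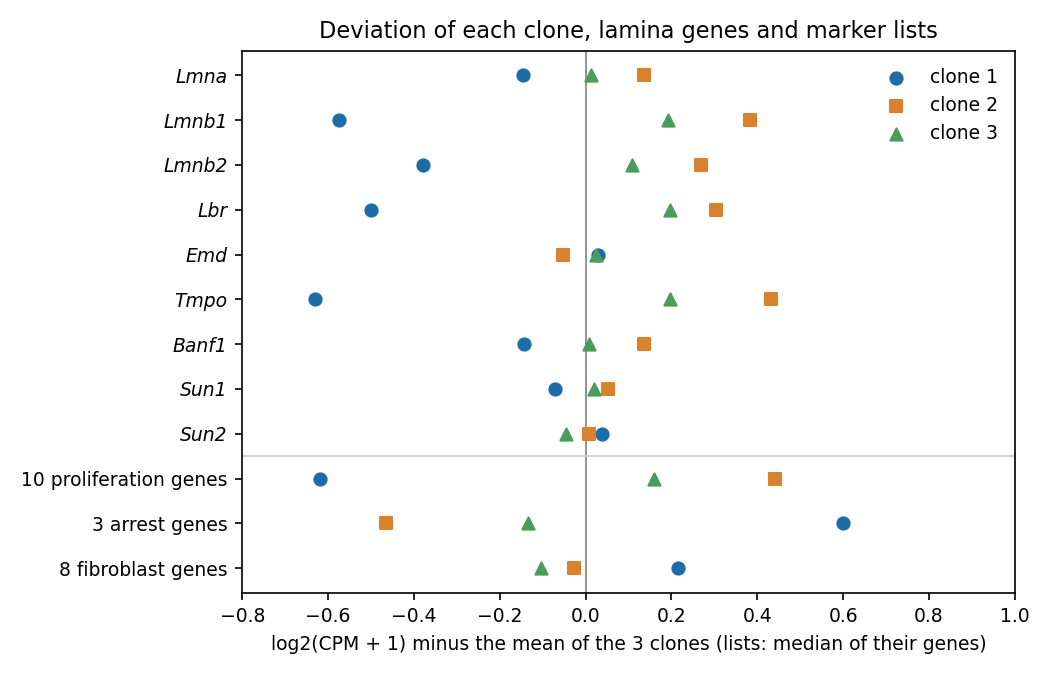
Deviation of each clone from the mean of the 3 clones on the log2(CPM + 1) scale, for each of the 9 genes and, below the line, as the median of the genes of 3 marker lists. Lmnb1, Tmpo and Lbr spread about as widely as the proliferation genes, with clone 1 lowest, and Emd, Sun1 and Sun2 lie near 0.

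Likeness of pattern was described by the Euclidean distance between the deviations of log2(CPM + 1) of a pair of genes over the 3 libraries, with no test, since 3 points cannot separate patterns well. The closest pair was Lmna and Banf1, at a distance of 0.00524. Lmnb1 lay 0.0745 from Tmpo and 0.109 from Lbr, and Emd lay 0.0923 from Sun2. The most distant pair was Emd and Tmpo at 0.837, and the Emd to Tmpo ratio per kb of merged exons was 6.57, 2.93 and 3.66 for clones 1, 2 and 3. Of the other nuclear envelope genes that differed between clones, the nearest were Ankle1 to Tmpo (0.0436) and to Lmnb1 (0.0524), Nemp1 to Lbr (0.0502), Cbx5 to Lmnb2 (0.0535), Tor1aip1 to Lmna (0.0411) and to Banf1 (0.0365), Tor1aip2 to Sun1 (0.0144), Plec to Sun2 (0.0786) and to Emd (0.128).

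Tmpo, Lbr and Lmnb2 were, with Lmnb1, the genes with the widest ranges between clones, each lowest in clone 1, and the promoters of the set were read for letters known from cell cycle genes: CCAAT (bound by NF-Y), TTTGAA (the CHR element) and TTCCCGC and TTGGCGC (E2F sites), on both strands. The RefSeq promoter windows (GRCm38.p6) run from 250 bases before to 50 bases after a start, and 8 of the 9 genes (all but Lmnb1) had at least 1 window, 13 in all. CCAAT stood in 8 of the 13 windows, beside 37.4% of all 32841 windows, and TTTGAA in 3, beside 17.9%. TTCCCGC stood in 2, beside 4.60%, and TTGGCGC in 1, beside 2.45%. The 110 bases before the start are shown for 3 genes that were low in clone 1 (Lbr, Tmpo and Lmnb2) and for the steady Sun1 and Sun2, with these letters, or their reverse complement, in capitals. They lie at chr1:181842402-181842511 for Lbr, chr10:91171620-91171729 for the first Tmpo window, chr10:80918246-80918355 for the first Lmnb2 window and chr15:79742537-79742646 for Sun2, all on the minus strand, and at chr5:139200527-139200636 on the plus strand for the first Sun1 window.
Lbr: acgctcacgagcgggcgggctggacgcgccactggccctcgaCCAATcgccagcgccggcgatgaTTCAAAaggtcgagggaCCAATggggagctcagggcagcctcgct
Tmpo: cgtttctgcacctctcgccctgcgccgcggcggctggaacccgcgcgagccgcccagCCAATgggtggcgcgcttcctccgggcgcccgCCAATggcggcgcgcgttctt
Lmnb2: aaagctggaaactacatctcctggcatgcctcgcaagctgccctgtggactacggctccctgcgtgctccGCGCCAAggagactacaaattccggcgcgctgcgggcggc
Sun1: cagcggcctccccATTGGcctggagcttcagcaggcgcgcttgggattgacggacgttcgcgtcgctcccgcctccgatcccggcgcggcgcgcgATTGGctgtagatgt
Sun2: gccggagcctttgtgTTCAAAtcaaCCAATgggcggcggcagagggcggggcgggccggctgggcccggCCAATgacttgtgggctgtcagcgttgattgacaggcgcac
A pair of CCAAT boxes begins 68 and 28 bases before the start in Lbr, 53 and 21 bases in Tmpo, 97 and 15 bases in Sun1 and 85 and 41 bases in Sun2. Of all windows, 11.7% held 2 or more. These windows of Lbr, Tmpo, Sun1 and Sun2 were also rich in CpG, with 42, 36, 36 and 39 beside a median of 7 over all windows, so the shares are not of like promoters. The TTTGAA letters lie 45 bases before the start in Lbr and 95 bases in Sun2, and TTGGCGC lies 40 bases before the start in Lmnb2. The second Tmpo window, not printed, holds TTTGAA once and TTCCCGC at 2 places. The windows printed were chosen with the ranges between clones known. Whether these letters have a part in the differences between clones was not tested, and a match of letters is no evidence of binding.

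The other genes of the nuclear envelope were read from a list of 48 genes by role, of which 41 had enough counts to be tested. Of these, 28 differed between clones (68.3%, beside 62.5% of all genes tested), and their median fold of 1.28 was near the 1.24 of all genes. Of the 41 tested, 22 were called and lowest in clone 1, beside 27.1% of all genes tested, and 6 were called and highest there, beside 23.8%. In tests of each pair of clones, 15 of the 41 were lower in clone 1 than in both others, beside 17.6% of all genes, and 4 were higher, beside 15.5%. With DESeq2 size factors the former count was 14, and with unscaled library sizes 18. The only gene called with a range of at least 2-fold was Ankle1, a LEM-domain nuclease, with 97, 201 and 196 counts (3.90, 8.91 and 7.76 CPM, adjusted p = 1.20e-10).

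Of the KASH genes, whose products pair with SUN proteins, 3 of the 4 tested differed. This count and those by role below stand beside 62.5% of all genes tested, with 27.1% called and lowest in clone 1. Syne3, the nesprin that binds the cytoskeletal linker plectin, was highest per kb of merged exons (2.40 ± 0.782 CPM per kb; SD, n = 3) and had 236, 407 and 315 counts in clones 1, 2 and 3, lowest in clone 1. Kash5, a meiotic KASH gene, was lowest, with 4 counts in every clone. Even the highest KASH gene was thus below Sun1 per kb. Of the SUN genes outside the set, Spag4 had 120, 99 and 80 counts, and the testis genes Sun3 and Sun5 had 0 counts in every library.

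Of the other LEM-domain genes, 3 of the 4 tested differed. Lemd2, which helps seal the reforming envelope, was highest (20.7 ± 1.41 CPM per kb), with 2607, 2362 and 2348 counts, and Lemd1 was lowest with at most 2 counts. Of the 5 enzymes of lamin processing, 3 differed. Icmt, the methyltransferase that ends CaaX processing, was highest at 26.6 ± 1.89 CPM per kb, and the farnesyltransferase subunit Fntb was lowest at 4.73 ± 0.0774 (SD, n = 3), with 462, 433 and 475 counts and no difference beyond counting noise (adjusted p = 0.907). Zmpste24, the prelamin A protease, named after its values were seen, had 2642, 3337 and 3736 counts, and its CPM were 1.39-fold apart with clone 1 lowest.

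Of the VRK family, which includes kinases of BAF, and the BAF paralog Banf2, 2 of the 3 genes tested differed. Vrk1 was highest (3.35 ± 0.695 CPM per kb), with 324, 434 and 484 counts and clone 1 lowest, and Banf2 was lowest with at most 1 count. All 4 torsin and torsin cofactor genes differed, each lowest in clone 1 and highest in clone 2, beside 17.1% of all genes tested. Their levels ran from Tor1a (20.3 ± 3.01 CPM per kb) to Tor1aip2 (16.3 ± 0.601). Of the other inner membrane genes, 5 of the 6 tested differed, all lowest in clone 1, beside 27.1% of all genes tested. Tmem43, which encodes the emerin and lamin partner LUMA, was highest at 71.9 ± 9.35 CPM per kb with 6083, 7154 and 7457 counts, above every gene of the set except Lmna, and Mlip had at most 1 count.

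Of the partners of LBR and the sterol reductases, 3 of 5 differed, all lowest in clone 1. Cbx5, the heterochromatin protein HP1-alpha that LBR binds, was highest (13.3 ± 2.87 CPM per kb) with 2248, 3126 and 3301 counts, the same order of clones as the counts of Lbr. The sterol reductase Tm7sf2 was lowest at 1.76 ± 0.0528, with 194, 180 and 190 counts (adjusted p = 0.871). Of the linkers to the cytoskeleton, plectin (Plec) was highest at 71.8 ± 4.68 CPM per kb with 34650, 28759 and 31085 counts, higher in clone 1 than in both others, and the formin Fhod1 was at 14.9 ± 0.655.

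Of the nuclear pore basket genes, 2 of 3 differed. Tpr was highest at 21.6 ± 0.194 CPM per kb and did not differ (adjusted p = 0.700), and Nup153 was lowest at 10.3 ± 1.88 with 1427, 1857 and 1952 counts and clone 1 lowest. Of the 4 envelope sealing genes, 1 differed. Chmp4b was highest at 56.9 ± 1.09 and Vps4b lowest at 5.13 ± 0.137 CPM per kb, neither called (adjusted p = 0.416 and 0.533). The 4 genes that were higher in clone 1 than in both others were Plec, Icmt, Syne1 and Chmp7, the last 2 named after their values were seen. Syne1, which encodes nesprin-1, had 1441, 997 and 1142 counts, and Chmp7, the ESCRT adaptor of the envelope, had 1357, 921 and 1175.

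Overlaps in the annotation make some of these counts less certain. Because the strand setting of the counting is not given in the sources used here, reads of a gene and of an overlapping gene on the opposite strand cannot be told apart. Such exons overlap 28.6% of the merged exons of Banf1 (Eif1ad) and 9.24% of those of Lbr (Dnah14), and a gene on the same strand (Gm14686) overlaps 13.6% of those of Emd. The 86-nt stretches of the longest coding transcript were also searched for on both strands of other genes' transcripts, with at most 2 mismatches. Of these stretches, 29.2% for Banf1, 10.4% for Lbr, 1.53% for Sun2 and 0.203% for Lmnb2 occurred there. For Banf1 and Lbr the matches were to Eif1ad and Dnah14, and for Sun2 to Gm16575, which overlaps it. For Banf1, Lbr and Sun2 the matches thus fell in the overlapping genes. Those of Lmnb2, whose exons no other gene overlaps, included A430103D13Rik, Arhgef40, Luc7l2, Riok3 and Wdr12. Only annotated transcripts were searched, so copies elsewhere in the genome were not looked for. No such stretch was found for Lmna, Lmnb1, Emd, Tmpo or Sun1. Lmnb1 lies on the plus strand at chr18:56707813-56753424.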

How the data were processed

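The authors deposited raw counts per gene for 3 WT MEF libraries, listed by gene symbol and not normalized. Single-end reads of 86 nt were aligned with TopHat 2.0.0 (2 mismatches, 5 multi-hits), which used Samtools 0.1.16 and Bowtie 0.12.7, and counted with HTSeq. The methods name mm10 and the submitters' processing notes mm9. How the counting treated strand, and its gene annotation, are not given in the sources used here.

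CPM were computed with TMM-scaled library sizes (edgeR 4.0.16, R 4.3.3), with factors of 0.984, 0.998 and 1.02 for clones 1, 2 and 3. Exon and coding lengths came from GENCODE M21 (GRCm38), to which 99.7% of the genes matched by symbol or synonym. The chi-square test had 2 degrees of freedom and a threshold of 0.05 on the adjusted p. It was also run on simulated counts that held counting noise and planted changes in a single clone. Planted changes of 1.5-fold and 2-fold were called for 84.9% and 94.0% of the changed genes, with 15 and 18 unchanged genes called. The simulation had no other spread between clones, so it cannot tell how the test behaves where there is such a spread. Intervals are Wilson for shares and exact for ratios, at the 95% level. Alternatives were DESeq2 1.42.0 size factors, total counts, other thresholds on low counts, other pseudocounts, other lengths, removal of a GC and length trend, edgeR's common dispersion, and leaving out each clone. Calculations used Python 3.11.15 with scipy 1.17.1.

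The members and lists were chosen with earlier results of these data known. Named with values were the 9 genes and, of the other envelope genes, the highest and lowest per kb of each role and those called with at least a 2-fold range; exceptions are marked in the text.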

Additional observations from a re-analysis of the deposited data

How the results depend on the processing

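No paired analysis was possible because all 3 libraries belong to 1 group. DESeq2 size factors called 7629 genes, total counts 7802, no filter on low counts 7834 and a minimum of 50 counts 7094, beside 7642. Of the lamina and SUN genes, 8 were called with DESeq2 size factors and with no filter, and 7 with total counts, which lost Sun2. In all of the scalings and pseudocounts, after removal of the GC and length trend, and without clone 2 or 3, 7 were lowest in clone 1. Genes lower in clone 1 than in both others numbered 7 with total counts and 6 with DESeq2 size factors, which lost Sun1; this check was chosen after seeing the data.

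The common dispersion of edgeR was estimated from the same 3 libraries. With it in the chi-square test, 314 genes were called, 0 of the 9 lamina and SUN genes and 0 of the other envelope genes. The respective numbers at an unadjusted p under 0.05 were 884, 1 and 1. Leaving out 1 clone gave 4 to 8 lamina and SUN genes, 12 to 26 other envelope genes and 3893 to 6531 genes in all, each lowest without clone 1, and 4 to 8 neighbouring pairs apart in the order per kb, most without clone 1, whose low values widen the ranges.

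Shares depended on length. Per kb of the longest coding transcript, of coding length and of undivided counts, Lmna took 91.0%, 90.4% and 91.3% of lamin counts, Lmnb1 6.51%, 6.58% and 5.88%, and Lmnb2 2.54%, 3.05% and 2.85%. Lmnb1 took 71.6%, 68.0% and 67.0% of B-type counts, and Sun1 33.0%, 30.0% and 34.9% of SUN counts. Each of the 9 genes had at least 465 counts in every clone, so counting error was small beside the common coefficient of variation over all genes of 0.187. Emd, Sun1 and Sun2 varied much less than this, with coefficients of variation of 3.23%, 4.36% and 2.97%. For them counting error was not small beside their own spread, and Emd did not differ beyond it.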
